A study of Mus musculus with 55 samples.

Results

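The Cyp2c family of cytochrome P450 genes was followed in mouse liver through the per-library counts of 3 groups and the peak lists of 6 chromatin assays. The members were all genes whose name starts with Cyp2c in the RNA tables, and 17 of the 4113 genes listed there met this rule, of which 14 are protein-coding and 3 are pseudogenes (Cyp2c52-ps, Cyp2c53-ps and Cyp2c72-ps). Of the 17, 16 stood in the table of the Setd8-LKO livers, 14 in the table of the TCPOBOP-treated wild type (WT) livers and 13 in both. Each table lists the genes that its authors had selected as changed against untreated WT liver, so that the listing of a gene is itself a readout. Cyp2c68, Cyp2c40 and Cyp2c70 were listed only in the Setd8-LKO table and Cyp2c66 only in the WT table. The annotation holds 2 further Cyp2c genes, Cyp2c38 and Cyp2c73-ps, whose RNA was not analysed here and whose peaks are given below.

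The 3 RNA groups came from whole livers of male mice of 45 to 50 days. They were untreated WT mice (n = 5), WT mice 24 h after 3 mg/kg TCPOBOP (n = 5), and Setd8-LKO mice at the same time after the same dose (n = 4). TCPOBOP is an agonist of the constitutive androstane receptor (CAR). Setd8-LKO mice carry a floxed Setd8 exon deleted by Cre under the albumin promoter, so that the deletion is meant for hepatocytes while the other liver cells keep the gene, and Setd8 (Kmt5a) is the methyltransferase that places a single methyl group on lysine 20 of histone H4. The untreated animals are labelled only as untreated, whereas the methods mention corn oil as vehicle and elsewhere a mock treatment with DMSO. No untreated Setd8-LKO RNA was analysed here, so that genotype and treatment change together between the Setd8-LKO and the untreated group. ATAC-seq (3 untreated WT and 5 Setd8-LKO + TCPOBOP libraries), ChIP-seq of H3K27ac (3 and 3), CTCF (4 and 2) and Smc3 (3 and 2), Lamin A/C (4 and 4) and H4K20Me3 (2 and 2) compared those same 2 conditions, with 1 pooled peak list for each, and therefore give no replicate error. The 4 untreated Lamin A/C libraries carry only 2 sample numbers, each used for 2 libraries.

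The targeted gene was checked first. Kmt5a stood at 613, 567, 761, 563 and 715 normalized counts in the untreated libraries and at 1341, 1465, 1338 and 1313 in the libraries labelled Setd8-LKO. It was therefore higher, not lower, in all 4 libraries labelled Setd8-LKO (edgeR log2 fold change 1.08 ± 0.14 SE, adjusted p = 0.0004524). The median log2 fold change of all genes tested in this comparison was 1.16, and 0.34 with DESeq2 size factors over the listed genes. The size of the rise thus depends on the scaling. Gene-level counts do not show the deleted exon on its own. Values below are therefore given for the libraries labelled Setd8-LKO.

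CYP2C enzymes sit in the endoplasmic reticulum membrane, take electrons from cytochrome P450 reductase (Por), and oxidize drugs, steroids, retinoids and fatty acids. Several of the mouse enzymes turn arachidonic acid into epoxides or hydroxylated fatty acids. In liver, the family is known for its induction by foreign compounds through the nuclear receptors CAR and PXR, which bind as dimers with RXR to paired half-sites, among them direct repeats separated by 4 bases (DR4).

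Of the 17 listed genes, 16 lie in the tandem cluster at chr19:38976647-40187333 (GRCm38/mm10, GENCODE M21), with Cyp2c38 among them, and Cyp2c23 lies apart at chr19:44005022-44029208 on the minus strand. Neighbouring copies are alike, which bears on how reads can be assigned. Of the 50-base words of its exons, Cyp2c40 shares 62.3% with other Cyp2c genes, Cyp2c67 51.5%, Cyp2c69 48.4% and Cyp2c68 43.6%. For Cyp2c37 the share is 30.8%, for Cyp2c54 26.6% and for Cyp2c50 17.4%, and for Cyp2c65 and Cyp2c66 it is 17.4% and 17.1%. Cyp2c39 shares 8.43% and Cyp2c29 4.94%, whereas Cyp2c70 and Cyp2c23 share 0.0%. For RNA, the treatment of reads that map to several places is not given in the sources used here, so that values of the first 9 of these genes are less certain than those of Cyp2c29, Cyp2c70 and Cyp2c23. For the chromatin assays the methods describe a filter on mapping quality, and its part in missing peaks at near copies was not tested. Cyp2c53-ps and Cyp2c29 overlap by 5581 bp on the same strand, 142 bp of them exonic.

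**Figure D1:**
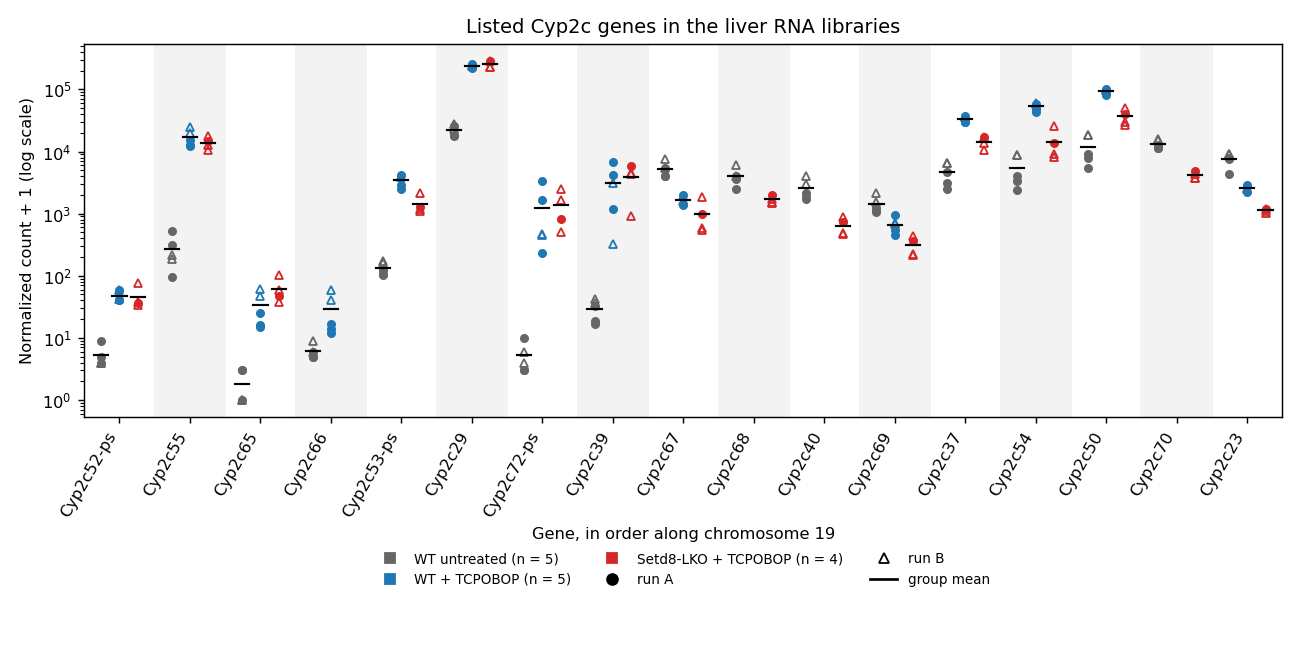
Normalized counts plus 1 (vertical axis, log scale) of the 17 listed Cyp2c genes in order along chromosome 19, with 1 point per liver library, colour for the group, shape for the run named in the column headers, and a bar at the group mean. Cyp2c29, Cyp2c55, Cyp2c39 and Cyp2c72-ps sit far above the untreated libraries in both treated groups, while Cyp2c37, Cyp2c54 and Cyp2c50 sit lower in Setd8-LKO + TCPOBOP than in WT + TCPOBOP and Cyp2c23 is stepped down across the 3 groups.

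In untreated WT liver, levels were compared as normalized counts per exonic kb. The length was the union of all GENCODE M21 exons of a gene. It was 3061 bases for Cyp2c29, 2918 for Cyp2c50, 1981 for Cyp2c70 and 2158 for Cyp2c23. Orders and shares per kb therefore depend on the annotation, and other lengths were not tested. Cyp2c29 had the highest mean level (7315 per kb), followed by Cyp2c70 (6727), Cyp2c50 (4054) and Cyp2c23 (3517), and the ranges of neighbouring genes in this order overlapped down to Cyp2c69 (829.4 per kb). Below a gap without overlap came Cyp2c55 at 133 and Cyp2c53-ps at 73.9 per kb. After a further gap, Cyp2c39 (15.6 per kb), Cyp2c72-ps, Cyp2c52-ps and Cyp2c66 (2.67) followed with overlapping neighbours, and Cyp2c65 was lowest (0.415). The order without treatment thus had 10 genes above the first gap, 2 between the gaps, and 5 below the second.

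After TCPOBOP, Cyp2c29 stood alone at the top in both genotypes. Its mean level was 77810 per kb in WT + TCPOBOP, above Cyp2c50 (32030), Cyp2c54 (30340) and Cyp2c37 (18550), and Cyp2c50 and Cyp2c54 were the only neighbours among these 4 whose ranges overlapped. In Setd8-LKO + TCPOBOP the mean level of Cyp2c29 was 84590 per kb against 12620 for Cyp2c50, and from Cyp2c50 through Cyp2c54 (8014) and Cyp2c37 (7922) to Cyp2c55 (6932) the ranges of neighbours overlapped.

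Cyp2c29 encodes an arachidonic acid epoxygenase and is a classical target of CAR agonists in mouse liver. It measured 23391, 27334, 18188, 17700 and 25339 normalized counts in the untreated libraries. It measured 223381, 255048, 234491, 235370 and 242619 in WT + TCPOBOP. The libraries labelled Setd8-LKO gave 230663, 232482, 287271 and 285320. Every treated library lay far above every untreated one, while the 2 treated groups overlapped. The ratio of means to untreated was 10.6 in WT + TCPOBOP and 11.6 in Setd8-LKO + TCPOBOP (log2 fold change 3.41 ± 0.19 and 3.53 ± 0.24 SE). These 2 comparisons share the untreated libraries and were used to list the genes, so that they are given as a description. The contrast between the treated groups was not itself used for the listing, but only genes listed in both tables could enter it. In this contrast Cyp2c29 differed by 0.12 ± 0.17 on the log2 scale, with a 95% interval from −0.25 to 0.49 that lies within a 2-fold change (edgeR, adjusted p = 1). The libraries were also close to each other, with a coefficient of variation of 4.9% in WT + TCPOBOP and 12.2% in Setd8-LKO + TCPOBOP.

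The chromatin of Cyp2c29 was read against the start that RefSeq gives at chr19:39287085, since the GENCODE gene begins further upstream at chr19:39269405. In untreated WT liver an ATAC peak lay on the promoter (chr19:39286926-39287090, fold enrichment over background 6.98), and the pooled Setd8-LKO + TCPOBOP list held none there. H3K27ac, a mark of active promoters and enhancers, was called in both conditions just downstream of the start, and in Setd8-LKO + TCPOBOP this peak was a single run (chr19:39287117-39289586, fold enrichment 13.5) where untreated WT had 3 shorter peaks (fold enrichment 7.45 to 10.2). Only the Setd8-LKO + TCPOBOP list extended upstream, with peaks at chr19:39281849-39282889 (fold enrichment 13.9), chr19:39283159-39285717 (12.5) and chr19:39285879-39286932 (17.3). Farther upstream, before Cyp2c53-ps, the same list held H3K27ac peaks at chr19:39211018-39212866 and chr19:39213130-39214397 (fold enrichment 10.6 and 13.5) with an ATAC peak between them (chr19:39212567-39213212, fold enrichment 6.21). None of these 6 had a counterpart in untreated WT. Inside the gene, 7 peaks of the cohesin subunit Smc3 (fold enrichment 7.61 to 18.5) were also listed only for Setd8-LKO + TCPOBOP.

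The promoter is shown because the ATAC peak that was called in one condition only ends on it. It comprises the 250 bases before the RefSeq start (chr19:39286835-39287084, plus strand, GRCm38, sequence from RefSeq), and capitals mark the 159 bases within the ATAC peak of untreated WT liver.
Cyp2c29 promoter: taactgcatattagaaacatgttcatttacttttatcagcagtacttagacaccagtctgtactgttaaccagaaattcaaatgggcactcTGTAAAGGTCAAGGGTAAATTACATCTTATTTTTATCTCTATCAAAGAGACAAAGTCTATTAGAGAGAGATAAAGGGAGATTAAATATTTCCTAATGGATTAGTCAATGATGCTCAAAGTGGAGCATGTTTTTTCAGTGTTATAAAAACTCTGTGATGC
The H3K27ac peak gained at chr19:39281849-39282889 holds a match to the DR4 pattern AGNNCANNNNAGNNCA, searched on both strands, at chr19:39282622-39282637. Capitals mark the 2 half-sites and the spacer between them.
Cyp2c29 upstream DR4 match: AGTTCAGAAAAGGACA
Of the 27741 H3K27ac peaks of that list that were scanned, 7.43% hold this pattern in a window of 1041 bases, and the match is a description of the letters only. That list holds 24 H3K27ac peaks in the cluster and its 50 kb flanks, and this was the only match found among them.

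Cyp2c39, known for hydroxylating retinoic acid, was nearly silent without treatment and variable with it. The untreated libraries held 35, 41, 16, 32 and 18 normalized counts. The WT + TCPOBOP libraries held 1172, 6860, 4190, 319 and 3152, and those labelled Setd8-LKO 899, 4308, 4432 and 5761. No treated library overlapped the untreated ones, yet within WT + TCPOBOP the highest library was 21.5 times the lowest (coefficient of variation 82.4%), while Cyp2c29 in the same libraries spanned 1.14-fold. The log2 fold change over untreated was 6.78 ± 0.80 SE in WT + TCPOBOP and 7.08 ± 0.56 in Setd8-LKO + TCPOBOP. Between the treated groups it was 0.29 ± 0.65 with a 95% interval from −1.09 to 1.68, which leaves differences of more than 2-fold in either direction within reach (edgeR, adjusted p = 1).

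Cyp2c72-ps, a processed pseudogene between Cyp2c29 and Cyp2c38 whose gene ID carries another name in GENCODE M21, behaved alike in range. It held 3, 5, 2, 2 and 9 normalized counts in untreated livers and 228, 1632, 3366, 450 and 462 in WT + TCPOBOP. The libraries labelled Setd8-LKO held 2509, 1675, 505 and 817. Its treated libraries all exceeded its untreated ones, and its 2 treated groups overlapped. The ratio of Cyp2c72-ps to Cyp2c39, per exonic kb, ranged from 0.401 to 9.83 in Setd8-LKO + TCPOBOP and from 0.516 to 4.97 in WT + TCPOBOP. WT + TCPOBOP replicates 2 and 3 held the highest values of both genes in their group, while Setd8-LKO replicate 1 was highest for Cyp2c72-ps and lowest for Cyp2c39. RefSeq places a second start of Cyp2c39 at chr19:39347346, at the Cyp2c72-ps locus, and the 250 bases before the 2 starts are 90.9% identical over 220 aligned bases, so that the names of these transcripts differ between annotations.

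At Cyp2c39 itself the ATAC peak on the promoter was kept (fold enrichment 7.59 in untreated WT and 7.26 in Setd8-LKO + TCPOBOP). H3K27ac peaks beside it, at chr19:39509879-39510273 and chr19:39510896-39511177 (fold enrichment 6.96 and 8.15), were listed only for Setd8-LKO + TCPOBOP. The open promoter of a gene with 16 to 41 counts is shown here for its sequence (chr19:39510572-39510821, plus strand, GRCm38, sequence from RefSeq), with the 151 bases of the untreated WT ATAC peak in capitals.
Cyp2c39 promoter: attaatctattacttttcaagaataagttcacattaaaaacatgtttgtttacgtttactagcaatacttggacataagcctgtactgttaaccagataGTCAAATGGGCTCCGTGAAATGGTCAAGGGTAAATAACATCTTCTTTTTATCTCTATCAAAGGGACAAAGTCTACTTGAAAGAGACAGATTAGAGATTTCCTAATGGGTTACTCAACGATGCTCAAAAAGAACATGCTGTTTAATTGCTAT
A second ATAC peak kept in both lists upstream (chr19:39502213-39502403 in untreated WT) holds a DR4 match on the minus strand at chr19:39502342-39502357.
Cyp2c39 upstream DR4 match: AGTTCAACTAAGGACA
Both half-sites equal those of the match upstream of Cyp2c29. The pattern is found in 2.16% of ATAC peaks of untreated WT liver in windows of 191 bases. Among the 12 ATAC peaks of untreated WT liver in the cluster and its 50 kb flanks, no other match was found.

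Cyp2c55, which hydroxylates arachidonic acid and is also expressed in the colon, rose in parallel with Cyp2c29 from a lower base. Its untreated values were 182, 214, 306, 95 and 528 normalized counts. They compare with 15305, 12448, 12963, 25050 and 19669 in WT + TCPOBOP and with 10499, 12599, 17508 and 14711 in the libraries labelled Setd8-LKO. The treated groups lay wholly above the untreated one and overlapped each other. The ratio of means to untreated was 64.5 and 52.2, and the difference between treated groups was −0.31 ± 0.38 on the log2 scale (95% interval −1.11 to 0.50; edgeR, adjusted p = 1). Upstream of its start, H3K27ac peaks at chr19:39004540-39005181 and chr19:39005389-39006724 (fold enrichment 8.49 and 10.2) flanked an ATAC peak present in both lists, and both were listed only for Setd8-LKO + TCPOBOP. Within the gene the same condition gained a CTCF peak (chr19:39027593-39027839, fold enrichment 15.9) inside an Smc3 peak (fold enrichment 33), the only CTCF peak in the cluster in either list. Genome-wide, 83.9% of the CTCF peaks of Setd8-LKO + TCPOBOP were gained.

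The other members of the left side of the cluster, from Cyp2c52-ps to Cyp2c53-ps, are pseudogenes or stayed low. Cyp2c53-ps, which overlaps Cyp2c29, held 103 to 170 normalized counts untreated, 2507 to 4167 in WT + TCPOBOP and 1106 to 2184 in the libraries labelled Setd8-LKO, without overlap among the 3 groups. Cyp2c52-ps, beside Cyp2c55, went from 3 to 8 normalized counts to 39 to 57 and 33 to 75. Cyp2c65, an intestinal member, was at 0 to 2 normalized counts untreated, at 14 to 61 in WT + TCPOBOP and at 37 to 101 in the libraries labelled Setd8-LKO. Cyp2c66, its neighbour with a promoter 94.1% identical over 221 aligned bases, went from 4 to 8 normalized counts to 11 to 59 in WT + TCPOBOP (log2 fold change 2.38 ± 0.52, edgeR adjusted p = 0.08106). The folds of Cyp2c65, Cyp2c66, Cyp2c52-ps and Cyp2c72-ps rest on untreated values of 9 or fewer counts, and so depend on the count added in the fit.

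Cyp2c37, Cyp2c50 and Cyp2c54, 3 adjacent genes for enzymes that oxidize arachidonic acid, rose in WT + TCPOBOP and stood lower in the libraries labelled Setd8-LKO. Cyp2c54 held 8691, 8783, 2400, 4015 and 3373 normalized counts in untreated livers, and 48489, 59149, 44041, 60561 and 58734 in WT + TCPOBOP. The libraries labelled Setd8-LKO held 8246, 9146, 25961 and 13900. All 4 lay below every WT + TCPOBOP library, and 1 of them fell within the untreated range. The mean of WT + TCPOBOP was 3.79 times that of Setd8-LKO + TCPOBOP, and the log2 difference was −1.92 ± 0.42 (95% interval −2.82 to −1.03). With adjustment over the 55450 genes of the annotation this missed the threshold (edgeR, adjusted p = 0.1343). Adjusted over the 506 genes of both tables it passed (edgeR, adjusted p = 0.001225). With the run as a term it also passed over the annotation (log2 difference −2.13, edgeR adjusted p = 0.03231). Setd8-LKO replicate 3 held the highest value of its group, nearest to WT + TCPOBOP, so that leaving it out had to widen the difference. Without replicate 3 the log2 difference was −2.38 (edgeR, adjusted p = 0.0295), while leaving out any other library brought no call.

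Cyp2c50 held 18367, 18317, 5474, 9096 and 7894 normalized counts untreated, 88888, 103053, 82223, 97082 and 96053 in WT + TCPOBOP, and 27059, 29463, 50199 and 40575 in the libraries labelled Setd8-LKO. The 3 groups did not overlap, with Setd8-LKO + TCPOBOP in between. The log2 difference between the treated groups was −1.34 ± 0.33 (edgeR, adjusted p = 0.3393 over the annotation and 0.003096 over the 506 genes). Cyp2c37 held 6603, 6560, 2460, 4610 and 3071 untreated, 29672, 37995, 30153, 35453 and 35909 in WT + TCPOBOP, and 10613, 13562, 16815 and 16810 in the libraries labelled Setd8-LKO. Its groups were likewise in that order without overlap, and the log2 difference between the treated groups was −1.23 ± 0.28 (edgeR, adjusted p = 0.1802 and 0.001644). Over the 14 libraries Cyp2c37 and Cyp2c50 had a Pearson correlation of 0.995, and Cyp2c54 and Cyp2c50 of 0.984, on log2 normalized counts plus 1, among genes that share exon sequence.

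The size of their rise over untreated differed between runs A and B, as the column headers name them without saying what a run stands for. The 2 untreated libraries of run B had a mean of 8737 normalized counts of Cyp2c54 and the 3 of run A a mean of 3263. The log2 ratio of means of Setd8-LKO + TCPOBOP to untreated was 2.09 for Cyp2c54, 2.44 for Cyp2c50 and 2.31 for Cyp2c37 among run A libraries, and 0.73, 0.96 and 1.05 among those of run B. For WT + TCPOBOP the same ratios were 3.95, 3.61 and 3.27 among run A libraries, against 2.77, 2.40 and 2.44 among those of run B. Between the treated groups the difference was of the same direction in both runs, at −1.86 and −2.05 for Cyp2c54, −1.17 and −1.44 for Cyp2c50, and −0.96 and −1.38 for Cyp2c37, where run A holds 1 library labelled Setd8-LKO.

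The promoters of these 3 genes differed in their peaks. At the Cyp2c54 start, untreated WT liver had an ATAC peak (chr19:40073824-40074084, fold enrichment 6.62) between H3K27ac peaks at chr19:40073356-40073753 and chr19:40074013-40074264 (fold enrichment 7.65 and 8.43), and all 3 were missing from the Setd8-LKO + TCPOBOP lists. At the Cyp2c50 start, H3K27ac was called in both conditions, and ATAC peaks at chr19:40088535-40088678 and chr19:40089535-40089735 (fold enrichment 4.84 and 4.75) appeared only in Setd8-LKO + TCPOBOP. Cyp2c37 had no peak within 1000 bp of its start in either condition for ATAC, H3K27ac, CTCF or Smc3. The promoters of Cyp2c37 and Cyp2c50 are 88.4% identical over 242 aligned bases, and are shown to place the gained ATAC peak (Cyp2c37 at chr19:39992174-39992423 and Cyp2c50 at chr19:40089429-40089678, both plus strand, GRCm38, sequences from RefSeq), with the 144 bases of that peak in capitals in the second.
Cyp2c37 promoter: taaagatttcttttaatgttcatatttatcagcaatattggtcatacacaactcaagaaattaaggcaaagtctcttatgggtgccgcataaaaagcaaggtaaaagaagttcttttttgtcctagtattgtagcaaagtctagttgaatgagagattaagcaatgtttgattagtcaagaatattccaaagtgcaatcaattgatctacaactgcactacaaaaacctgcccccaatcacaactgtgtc
Cyp2c50 promoter: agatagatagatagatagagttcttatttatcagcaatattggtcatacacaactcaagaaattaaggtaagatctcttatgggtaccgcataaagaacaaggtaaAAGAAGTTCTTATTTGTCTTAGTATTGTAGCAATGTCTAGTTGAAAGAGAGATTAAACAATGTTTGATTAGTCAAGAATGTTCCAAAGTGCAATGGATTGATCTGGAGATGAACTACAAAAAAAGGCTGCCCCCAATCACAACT
At −1716 relative to the Cyp2c37 start stands the only DR4 match in the 3000 bases before the 14 Cyp2c starts of the RefSeq table, which cover 13 symbols. Such a match was found before 20.2% of all 32851 starts. With the stricter half-site AGNTCA, none of the 14 had a match, against 1.14% of all. Cyp2c54, Cyp2c23 and the 3 listed pseudogenes were not among the table's entries. The pattern TTCNNNGAA bound by STAT5, the growth hormone-driven factor, was absent from the windows of 250 bases before to 50 after the 14 starts, and present in 8.3% of all, while 7 of the 14 had it within 3000 bases, beside 63.1% of all.

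**Figure D2:**
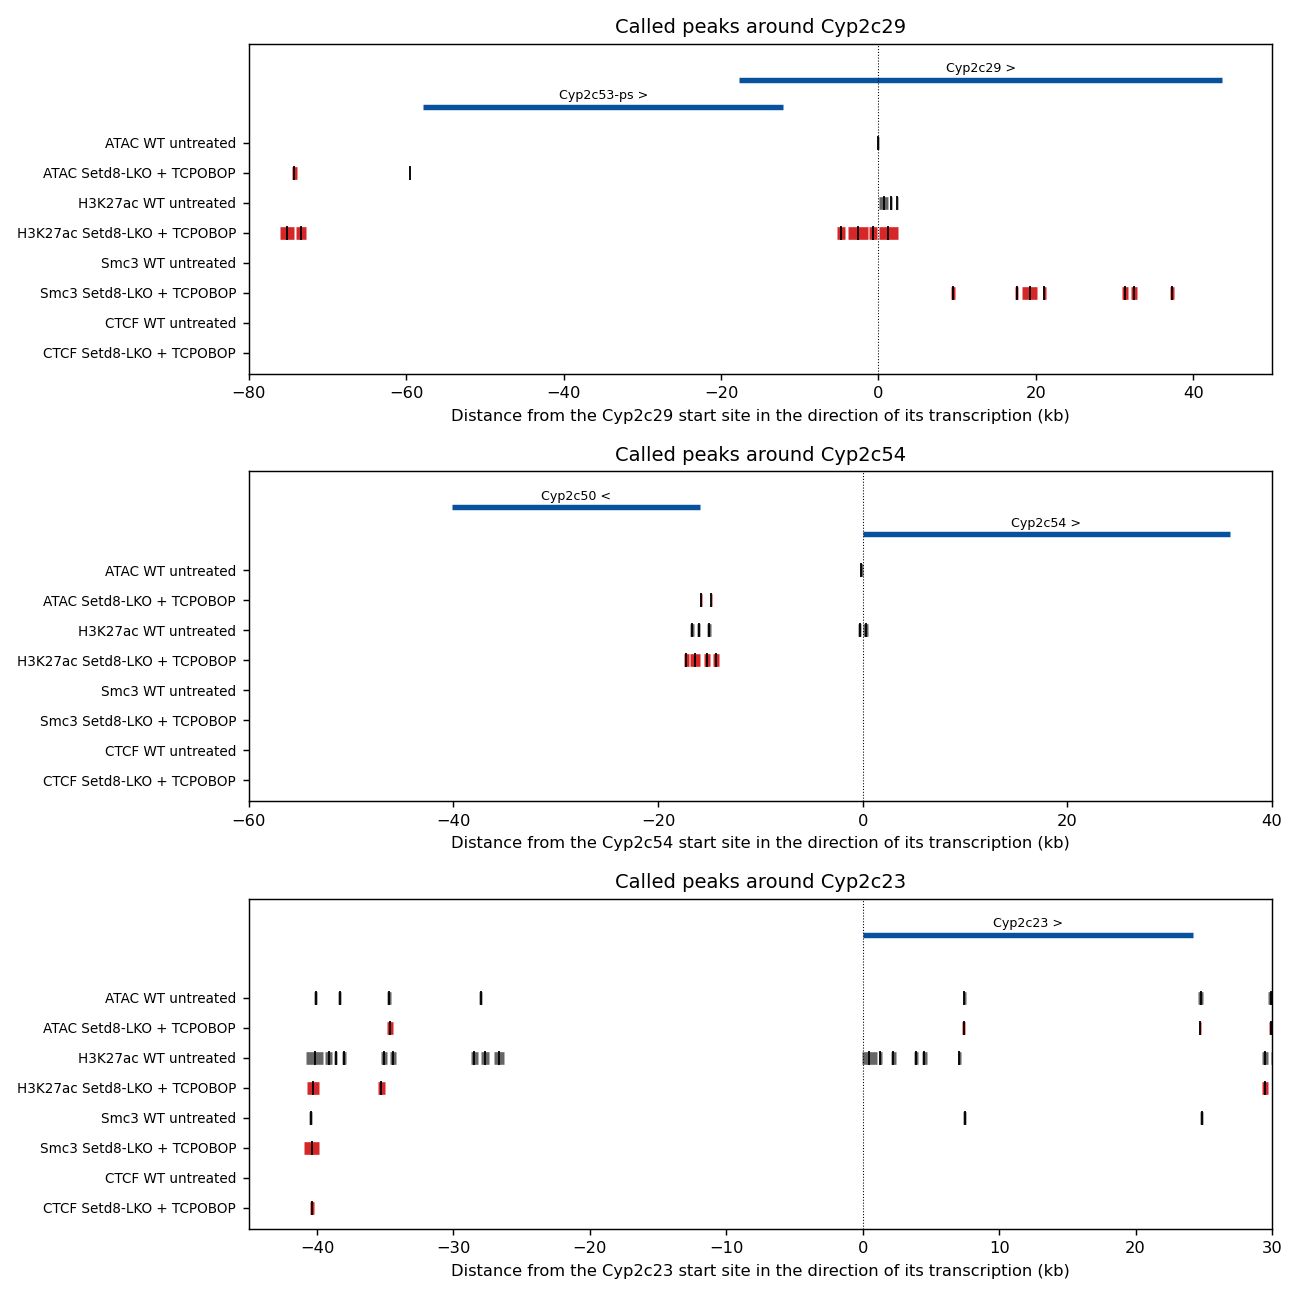
Called peaks (thick bars to scale, with a tick at each centre) of ATAC, H3K27ac, Smc3 and CTCF in the pooled lists of untreated WT (grey) and Setd8-LKO + TCPOBOP (red), against the distance in kb from the start of Cyp2c29, Cyp2c54 and Cyp2c23, with gene bodies in blue and > or < for their direction. H3K27ac peaks upstream of Cyp2c29 are listed only for Setd8-LKO + TCPOBOP. The peaks at the Cyp2c54 start and the H3K27ac peaks in the body of Cyp2c23 are listed only for untreated WT.

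Cyp2c67, Cyp2c68, Cyp2c40 and Cyp2c69 form a block of near copies on the minus strand and were lower in the libraries labelled Setd8-LKO. Cyp2c67 held 4005 to 7553 normalized counts untreated, 1376 to 2026 in WT + TCPOBOP, and 552, 588, 1869 and 988 in the libraries labelled Setd8-LKO. Its treated groups overlapped through Setd8-LKO replicate 3, and the log2 difference between them was −0.74 ± 0.33 (edgeR, adjusted p = 1). Cyp2c69 went from 1058 to 2128 normalized counts untreated to 460 to 941 in WT + TCPOBOP and 214 to 436 in the libraries labelled Setd8-LKO, where no library overlapped WT + TCPOBOP (log2 difference −1.11 ± 0.29, edgeR adjusted p = 0.513 over the annotation and 0.004681 over the 506 genes). Cyp2c40, whose product hydroxylates arachidonic acid, fell from 1691 to 4085 normalized counts untreated to 465 to 869 (log2 fold change −2.01 ± 0.31). Cyp2c68 went from 2516 to 5978 normalized counts untreated to 1460 to 2019 (log2 fold change −1.27 ± 0.24). The promoters of Cyp2c40 and Cyp2c69 are 98.6% identical over 220 aligned bases, and their values had a correlation of 0.994 over the 9 libraries of the Setd8-LKO table. With this much shared sequence, the 4 genes cannot be counted as 4 separate observations. Cyp2c67 and Cyp2c68 had an H3K27ac peak on the promoter in both conditions and Cyp2c68 also an ATAC peak in both, while Cyp2c40 and Cyp2c69 had none of either.

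Cyp2c23 and Cyp2c70 share no 50-base exon word with other members, and both stood lower in the libraries labelled Setd8-LKO. Cyp2c70 is the enzyme that makes muricholic acids, the bile acids typical of the mouse. It held 15609, 15541, 11595, 12649 and 11232 normalized counts untreated and 3677, 4337, 3730 and 4807 in the libraries labelled Setd8-LKO, a fall without overlap (log2 fold change −1.69 ± 0.18). Its promoter kept H3K27ac peaks in both conditions and had an ATAC peak (chr19:40187298-40187464, fold enrichment 6.82) only in the Setd8-LKO + TCPOBOP list, so that a promoter with a gained ATAC peak belonged to a gene with less RNA.

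Cyp2c23 encodes an epoxygenase of liver and kidney. It held 9131, 9003, 7566, 4401 and 7849 normalized counts in untreated livers, 2891, 2254, 2789, 2605 and 2478 in WT + TCPOBOP, and 1106, 1026, 1204 and 1208 in the libraries labelled Setd8-LKO. The 3 groups formed separate steps, with coefficients of variation of 9.7% and 7.68% in the treated groups. The untreated mean was 2.92 times that of WT + TCPOBOP and 6.68 times that of Setd8-LKO + TCPOBOP. Between the treated groups the log2 difference was −1.20 ± 0.20 (95% interval −1.62 to −0.77, edgeR adjusted p = 0.01302), and the log2 ratio of means was −1.13 for run A libraries alone and −1.19 for run B. The call was lost without Setd8-LKO replicate 1, Setd8-LKO replicate 2 or WT + TCPOBOP replicate 1 (edgeR adjusted p = 0.0742, 0.08589 and 0.05027), while the log2 difference stayed between −1.18 and −1.15. It was also lost with TMM scaling (−0.91, edgeR adjusted p = 0.06268) and with a block for the replicate number (−1.19, edgeR adjusted p = 0.157). In untreated WT liver its promoter carried an H3K27ac peak at chr19:44028183-44029289 (fold enrichment 26.7, −log10 p 158) with 5 smaller peaks in the gene body, and all 6 were missing from the Setd8-LKO + TCPOBOP list. Its ATAC peak within the gene (chr19:44021664-44021884) was kept, and no ATAC peak lay on its promoter in either condition.

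**Figure D3:**
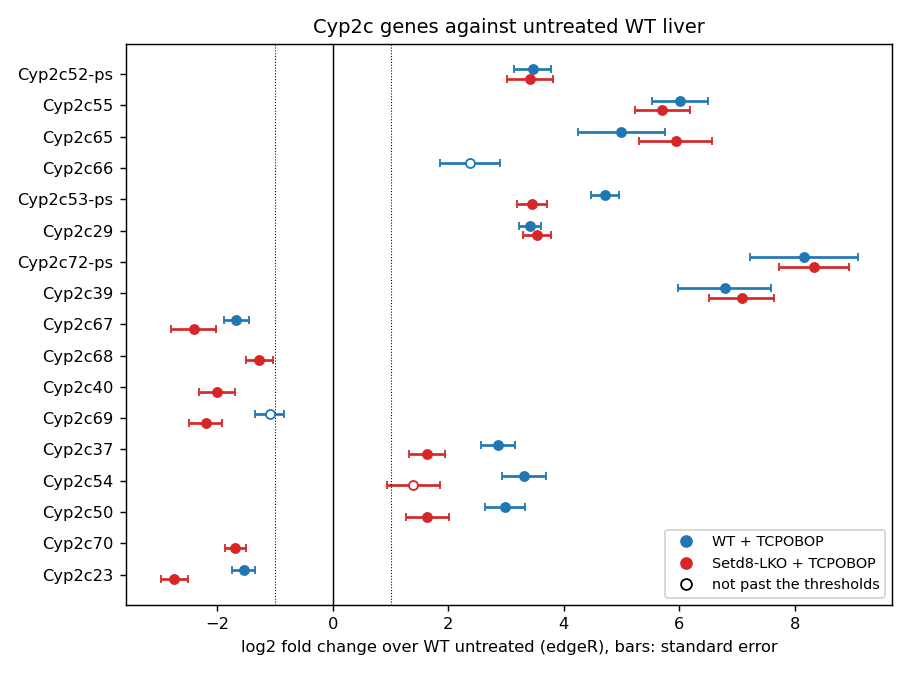
log2 fold change over untreated WT (horizontal axis, edgeR, bars are the standard error, dotted lines at −1 and 1) of each listed Cyp2c gene in WT + TCPOBOP (blue) and Setd8-LKO + TCPOBOP (red), with open points for genes that missed the thresholds. From Cyp2c52-ps to Cyp2c39 all points lie above 2, and the red points of Cyp2c37, Cyp2c54 and Cyp2c50 lie to the left of the blue ones.

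Counted against untreated liver at an adjusted p below 0.05 (edgeR, over the annotation) and a change of 1 or more log2 units either way, 9 of 16 members were higher and 6 lower in Setd8-LKO + TCPOBOP, beside 50.5% and 34.6% of the 3726 listed genes tested (85.1% in either direction). The exception was Cyp2c54 (log2 fold change 1.39 ± 0.46, adjusted p = 0.181). In WT + TCPOBOP, 10 of 14 were higher and 2 lower, beside 51.4% and 16.2% of 679 genes (67.6% in either direction), and Cyp2c66 and Cyp2c69 were the exceptions. Since these contrasts listed the genes, nothing is read from these shares. The median log2 fold change of all genes tested was 1.16 and 1.34, respectively.

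Between Setd8-LKO + TCPOBOP and WT + TCPOBOP, 1 of the 13 members in both tables, Cyp2c23, was called lower and 0 were called higher, beside 15.8% and 9.09% of the 506 genes tested (24.9% in either direction). No overlap between the 2 groups was seen for 6 members, Cyp2c23, Cyp2c37, Cyp2c50, Cyp2c54, Cyp2c69 and Cyp2c53-ps, all of them lower in the libraries labelled Setd8-LKO, beside 30.8% of the 506 genes that were lower without overlap and 19% that were higher. All but Cyp2c23 share exon sequence with other Cyp2c genes, so that the 6 cannot be counted as 6 separate observations. The same 6 were called lower when p was adjusted over the 506 genes, and 0 members were called higher. With that adjustment 227 of the 506 genes were called, 138 lower (27.3%) and 89 higher. Cyp2c53-ps had a log2 difference of −1.27 ± 0.25 (edgeR, adjusted p = 0.06851 over the annotation), and passed with the run as a term (−1.40, edgeR adjusted p = 0.01773). Cyp2c29, Cyp2c55, Cyp2c39, Cyp2c72-ps, Cyp2c65 and Cyp2c52-ps, at log2 differences of −0.31 to 0.91, overlapped between the groups, and so did Cyp2c67. The median over the 506 genes was −0.23, and with TMM or DESeq2 size factors over the listed genes, which moved it to 0.06 and −0.12, the 6 members without overlap still had negative log2 differences.

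**Figure D4:**
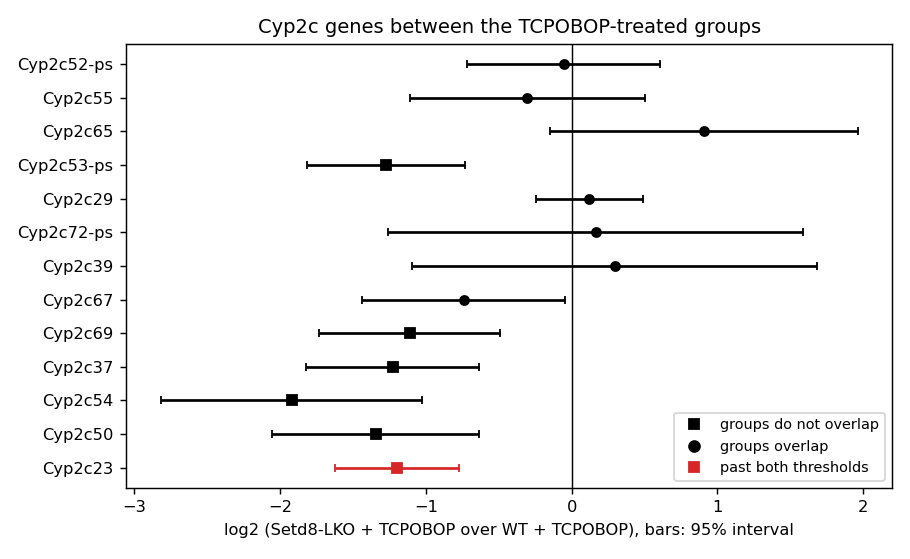
log2 difference of Setd8-LKO + TCPOBOP over WT + TCPOBOP (horizontal axis, edgeR, bars are 95% intervals) for the 13 Cyp2c genes of both tables, with squares for genes whose libraries do not overlap and red for the gene past both thresholds. The 6 squares lie below 0 with intervals that exclude 0, and the interval of Cyp2c29 is the narrowest of the genes that span 0.

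The make-up of the family was described over the 13 genes that have values in all 3 groups. As a share of the summed normalized counts per exonic kb of the 13 genes, Cyp2c29 took 24.8% to 38.4% in the untreated libraries, 42.3% to 46.3% in WT + TCPOBOP and 62.5% to 70.2% in the libraries labelled Setd8-LKO, without overlap. Cyp2c54 took 7.41% to 15.8% of the level per kb in untreated livers, 14.9% to 18.6% in WT + TCPOBOP and 4.3% to 9.68% in the libraries labelled Setd8-LKO. Its untreated range overlapped both treated ranges. Cyp2c23 took 10.8% to 19.3% in untreated livers and less than 1% in each treated library. These shares leave out Cyp2c70, Cyp2c68 and Cyp2c40, which have no WT + TCPOBOP values here and which made up 27.5% to 33.9% of the level per kb of the 16 genes of the Setd8-LKO table in untreated livers and 2.16% to 2.86% in the libraries labelled Setd8-LKO. Over those 16 genes Cyp2c29 took 18% to 27.4% untreated and 61.1% to 68.3% in Setd8-LKO + TCPOBOP, and Cyp2c23 took 7.42% to 12.8% and 0.363% to 0.465%. The sum per kb of the 13 genes was 18135 to 33737 untreated, 159549 to 190900 in WT + TCPOBOP and 107352 to 150220 in the libraries labelled Setd8-LKO.

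**Figure D5:**
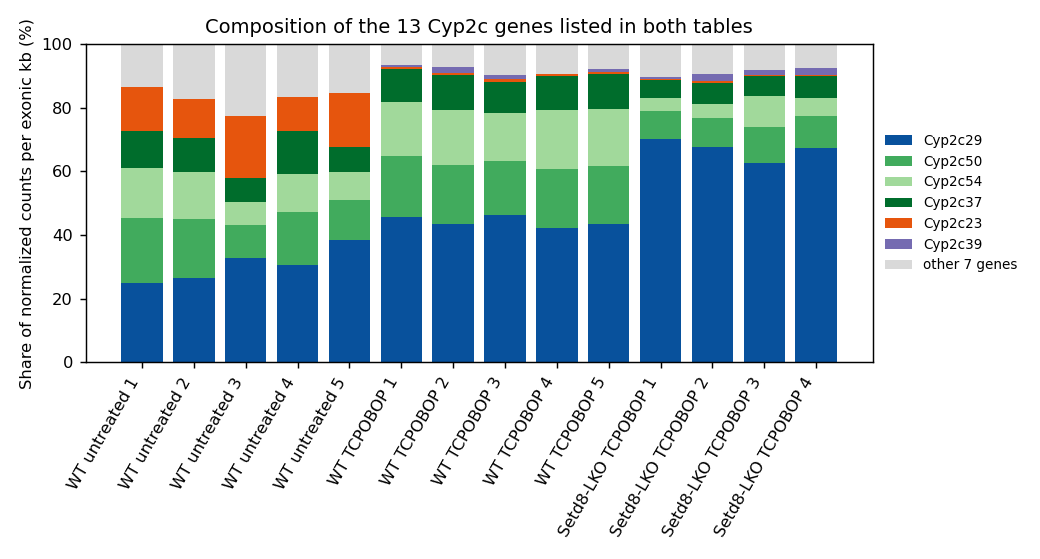
Share (%) of the summed normalized counts per exonic kb of the 13 Cyp2c genes listed in both tables (without Cyp2c70, Cyp2c68 and Cyp2c40), with 1 stacked bar per liver library ordered by group and replicate. The Cyp2c29 segment is 42.3% to 46.3% in WT + TCPOBOP and 62.5% to 70.2% in Setd8-LKO + TCPOBOP, and the 3 green segments (Cyp2c50, Cyp2c54 and Cyp2c37) shrink in the latter.

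Across the cluster and its 50 kb flanks (1310.7 kb), H3K27ac had 21 peaks in untreated WT and 24 in Setd8-LKO + TCPOBOP. Of the 8 lost peaks, 3 lay at Pdlim1 in the flank. Away from the other genes of this window, 5 of 17 peaks were lost and 14 of 23 gained, which is 29.4% and 60.9%, beside 22.3% and 25.5% genome-wide. Of 12 and 13 ATAC peaks, 5 were lost, 2 of them at Hells and Pdlim1, and 6 gained. Away from the other genes, 3 of 9 were lost and 6 of 12 gained (33.3% and 50%, beside 27% and 14.4%). Smc3 had 2 peaks in untreated WT, both lost, 1 of them at Pdlim1, and 9 in Setd8-LKO + TCPOBOP, all gained, of which the one with the highest fold enrichment (40.3) lay at Hells. Of all Smc3 peaks, 57.5% were lost and 76.0% gained. Lamin A/C had no island in the cluster in either list, and H4K20Me3, a heterochromatin mark, had 1 gained island between Cyp2c69 and Cyp2c37 (chr19:39960001-39979999). Of all H4K20Me3 islands of Setd8-LKO + TCPOBOP, 26.1% were gained. Around Cyp2c23 and its flanks, 13 of 22 H3K27ac peaks and 3 of 9 ATAC peaks were lost and 0 gained in either assay. Of these losses, 6 of the H3K27ac peaks and 0 of the ATAC peaks lay in Cyp2c23, and the other 7 and 3 lay at Erlin1. The flanks of Cyp2c23 also hold Cpn1 and Chuk. Of 4 Smc3 peaks around Cyp2c23 in untreated WT, 3 were lost, 2 of them away from the other genes, and 0 were gained. For CTCF 1 peak was gained, at Erlin1. Each list is 1 pool per condition, so that these counts have no error and no test.

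Over the promoters (1000 bp to either side of a start) of the 19 annotated Cyp2c genes, 15 of them protein-coding, all peaks lay at protein-coding members. ATAC peaks lay at 4 of these 15 in untreated WT (Cyp2c29, Cyp2c39, Cyp2c68 and Cyp2c54) and at 4 in Setd8-LKO + TCPOBOP (Cyp2c39, Cyp2c68, Cyp2c50 and Cyp2c70), beside 43.1% and 37% of all protein-coding promoters. The ATAC peak was lost at Cyp2c29 and Cyp2c54 (7.22% of all promoters) and gained at Cyp2c50 and Cyp2c70 (1.14%). H3K27ac lay at 8 of the 15 promoters in untreated WT and 7 in Setd8-LKO + TCPOBOP, beside 54.5% and 58.8%. It was lost at Cyp2c38, Cyp2c54 and Cyp2c23 (0.948% of all promoters) and gained at Cyp2c55 and Cyp2c39 (5.27%). Cyp2c38, without analysed RNA, thus lost an H3K27ac peak (chr19:39462864-39463062, fold enrichment 7.65), and Cyp2c73-ps on chromosome 14 had no peak. No CTCF or Smc3 peak lay on a Cyp2c promoter in either condition, while CTCF was listed at 6.81% and 43.2% and Smc3 at 17.2% and 58.2% of all promoters. Of these, CTCF was listed in untreated WT alone at 0.319% and in Setd8-LKO + TCPOBOP alone at 36.7%, and Smc3 at 0.962% and 42%.

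Other genes of the same pathways are given from lists, with counts called higher and lower at the authors' scaling. The comparisons with untreated liver selected the listed genes, so that these counts are a description, to be set beside 50.5% higher and 34.6% lower of all genes tested in Setd8-LKO + TCPOBOP and 51.4% and 16.2% in WT + TCPOBOP. Of 41 CAR and PXR targets, 28 were tested in Setd8-LKO + TCPOBOP with 27 higher and 1 lower, and 35 in WT + TCPOBOP with 33 higher and 0 lower. Cyp2b10, the classical CAR target, had log2 fold changes of 9.84 ± 0.61 and 10.12 ± 0.54, respectively. Between the treated groups, where 9.09% of all genes were higher and 15.8% lower, 2 of 26 were higher (the transporter Abcc4, log2 difference 1.66 ± 0.27, and the glutathione transferase Gstm2, 1.41 ± 0.27) and 1 lower (the carboxylesterase Ces2a, −1.87 ± 0.18). The median over these 26 was −0.10, beside −0.23 for all 506 genes. Of the 16 genes of electron transfer and haem, 3 of 4 tested were higher and 1 lower in Setd8-LKO + TCPOBOP, and 3 of 3 were higher in WT + TCPOBOP. Por was higher in both (2.17 ± 0.20 and 2.51 ± 0.18), and the gene that was lower was Cyb5b, for an electron carrier (−1.68 ± 0.15).

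Among 26 receptors and factors known to control Cyp2c genes, 5 were listed for Setd8-LKO + TCPOBOP. Ahr, the dioxin receptor, was higher (1.87 ± 0.16), and Cebpa (−2.24 ± 0.28) and Ppara (−1.53 ± 0.24), 2 factors of hepatocyte genes, were among the 3 that were lower. In WT + TCPOBOP Ahr was higher (1.68 ± 0.18) and none of the 4 listed was lower. Of the 28 genes of arachidonic acid and epoxide metabolism, 4 of 11 were higher in Setd8-LKO + TCPOBOP and 4 lower, and 3 of 4 were higher in WT + TCPOBOP and 1 lower. Cyp4f14, a fatty acid hydroxylase gene, was lower in both (−3.74 ± 0.28 and −1.46 ± 0.20), and lower in Setd8-LKO + TCPOBOP than in WT + TCPOBOP (−2.29 ± 0.25). Of the 28 retinoid genes, 5 of 15 were higher and 9 lower in Setd8-LKO + TCPOBOP, and 3 of 7 higher and 4 lower in WT + TCPOBOP. Of the pericentral hepatocyte genes, the zone where CAR targets are known to be induced, 4 of 7 were higher and 3 lower in Setd8-LKO + TCPOBOP, and 3 of 6 were higher and 3 lower in WT + TCPOBOP. Of the periportal genes, 1 of 15 was higher (Apoa4, for an apolipoprotein, 5.68 ± 0.32) and 14 were lower in Setd8-LKO + TCPOBOP, and 1 of 4 was higher and 3 lower in WT + TCPOBOP. No difference between the zones was tested.

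Markers of liver cell types moved with the groups, again among genes that these comparisons had selected and beside 50.5% higher and 34.6% lower of all genes tested in Setd8-LKO + TCPOBOP. Of 25 hepatocyte markers, 15 were listed for Setd8-LKO + TCPOBOP, 1 higher and 13 lower. Their summed level was 2381074, 2904926, 2736145, 2111981 and 3109185 normalized counts in untreated livers and 848943, 879887, 1114180 and 1256600 in the libraries labelled Setd8-LKO, with Alb the most abundant and no listed marker at 0. Of 7 cholangiocyte markers 6 were listed, 5 of them higher, with sums of 691, 613, 423, 671 and 465 normalized counts untreated and 7499, 6020, 1634 and 3900 in the libraries labelled Setd8-LKO (Spp1 the most abundant, Cldn4 at 0 in untreated replicate 5). All 5 listed of 10 stellate cell and fibroblast markers were higher, with sums of 2273 to 3474 untreated and 13697, 12564, 5873 and 7803 in the libraries labelled Setd8-LKO. Setd8-LKO replicate 3 had the lowest sums of these 2 non-hepatocyte lists. It was also highest in its group for Cyp2c54, Cyp2c50, Cyp2c67, Cyp2c37, Cyp2c29, Cyp2c55, Cyp2c52-ps, Cyp2c40, Cyp2c69, Cyp2c53-ps and Cyp2c65. It was not highest for Cyp2c70, Cyp2c23, Cyp2c39, Cyp2c72-ps or Cyp2c68. The sum of hepatocyte markers was highest in replicate 4 (1256600, against 1114180 in replicate 3). Of 12 macrophage markers 2 were listed and 1 was higher (Cd14), of 6 neutrophil markers 2 and of 10 lymphocyte markers 1 were listed with none called, and of 8 endothelial markers 0 were listed. In WT + TCPOBOP 4 of 25 hepatocyte markers were listed, with Cyp3a11, itself a target of CAR and PXR, higher (2.08 ± 0.23) and Ass1 lower (−1.68 ± 0.26), and with sums of 565996 to 613345 normalized counts against 136209 to 267938 in untreated livers (Cyp3a11 the most abundant in each, except for Ass1 in untreated replicate 1 and Hp in untreated replicate 4), 0 of 7 cholangiocyte markers were listed, and the 1 listed stellate cell marker, Lrat, was lower. In bulk liver, fewer cells of a type and less RNA per cell cannot be told apart, and the part of these shifts in the Cyp2c values was not tested.

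The genes whose log2 normalized counts plus 1 were most like those of a member over the 14 libraries (506 genes) are given by Pearson correlation. Gm45225 and Cyp2b10 were nearest to Cyp2c29 (both r 0.989), and Cyp2b10 to Cyp2c55 (0.992) and Cyp2c52-ps (0.979). For Cyp2c37 and Cyp2c50 they were each other, Cyp2c54 and Abcc3, a CAR-inducible transporter (0.978 and 0.973). Cyp2c39 was nearest to Ahr (0.948) and Cyp2c72-ps to Slc22a26 (0.965), while Cyp2c53-ps was nearest to 4931406C07Rik (0.994). Cyp2c23 was most like Hsd3b3 (0.981), a hydroxysteroid dehydrogenase gene, and Cyp2c67 and Cyp2c69 were most like each other (0.969). Over the 9 libraries of the Setd8-LKO table, Cyp2c70 was most like Selenbp1 (0.997), Cyp2c68 most like Gm20650 (0.982) and Cyp2c40 most like Cyp2c69 (0.994). Cyp2c65 was nearest to Gstm3 (0.964, 14 libraries), and Cyp2c66 to Gas7 (0.943) over the 10 libraries of the WT + TCPOBOP table. These values describe libraries that mostly fall into treated and untreated, a split that all listed genes share.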

How the data were processed

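RNA was measured in 14 whole-liver libraries, grouped by their labels. Per the file headers and methods, the authors cleaned reads in PRINSEQ, mapped them to mm10 using HISAT2, counted genes with metaseqR and deposited raw counts for the genes they had selected. The deposited normalized counts, rounded by the authors to whole numbers and treated here as a score, equal raw counts times 1 factor per library within 0.0635% for genes of 1000 counts or more. Peak lists were made by the authors with Trimmomatic 0.39, HISAT2, MACS2 2.2.7.1 (fold enrichment, a ratio to background, and −log10 p as deposited) and SICER (an island score as deposited), on pooled libraries reduced to equal reads for ChIP-seq and CUT&Tag. For ATAC-seq such a reduction is not stated. A peak is called kept where the other list has an overlapping peak, and otherwise lost or gained. Lost or gained thus means that no peak passed the authors' cut-off in the other list. Signal below the cut-off was not measured here.

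Raw counts entered edgeR 4.0.16 (quasi-likelihood, two-sided) with the authors' factors as library sizes, since the tables hold part of each library (1389901 to 12780869 listed counts) and library totals are not given in the sources used here. Genes under 10 counts, at an assumed 40000000 reads, were left out. p-values were adjusted by Benjamini-Hochberg over the 55450 genes of GENCODE M21, with unlisted genes taken as p of 1. Setd8-LKO + TCPOBOP was set against WT + TCPOBOP over the 506 genes of both tables, in 1 fit of the 3 groups. Motifs, shared words and promoter identities were computed with Python 3.11.15 and Biopython 1.88. The code was tested on simulated data. The methods call the replicates biological. The authors' own fold changes and p-values in the tables were not used, nor were 114 per-sample columns of other samples. All members are named, with the 5 most alike genes each (the nearest are printed) and up to 4 genes a list. The members and lists were chosen with earlier results of these data known. Alternatives were other scalings, no filter, adjustment over the listed genes, a replicate block, the run as a term, leaving out each library and other peak cut-offs. DESeq2 and limma on log2(normalized count + 1) were run for the 2 comparisons with untreated liver only. The log2 ratio within each run between the treated groups was added after seeing the data.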

Additional observations from a re-analysis of the deposited data

Results flagged for a closer look

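In 47 groups of 4 or 5 libraries (a member in a group), 3 held a library far from the others, and about 1 in 20 groups is expected to do so by chance. Cyp2c52-ps was at 8 normalized counts in untreated replicate 5, where the nearest library had 4. The same pseudogene was at 75 normalized counts in Setd8-LKO replicate 3, where the nearest had 37. Cyp2c66 was at 8 normalized counts in untreated replicate 2, where the nearest had 5. The untreated values are a few counts each.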

How the results depend on the processing

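Against untreated liver, all members kept their direction under every alternative run, with 12 to 16 members called in Setd8-LKO + TCPOBOP (15 as reported) and 10 to 14 in WT + TCPOBOP (12 as reported). Scaling over the listed genes moved the median log2 fold change of all genes from 1.16 to 0.34 (DESeq2 size factors, Setd8-LKO + TCPOBOP) and from 1.34 to 0.36 (TMM) or 0.18 (DESeq2 size factors, WT + TCPOBOP). All genes called then went from 1881 higher and 1289 lower to 804 and 1451, and from 349 higher and 110 lower to 72 and 187 or 67 and 193. Under the first of these, Cyp2c37 and Cyp2c50 fell to 0.82 and 0.85 and were not called. In WT + TCPOBOP Cyp2c65 was not called under either scaling (adjusted p = 0.06621 and 0.09294, edgeR) and Cyp2c69 was (−2.07 and −2.26). Cyp2c50 in Setd8-LKO + TCPOBOP lost its call without untreated replicate 4 or 5 or Setd8-LKO replicate 3 or 4 (edgeR adjusted p = 0.06461 to 0.07148).

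Between the treated groups, the count of members called (1 as reported) was 0 with TMM, which moved the median of all genes from −0.23 to 0.06, and 1 with DESeq2 size factors. It was 6 with adjustment over the listed genes, 3 with the run as a term (Cyp2c54 at −2.13, Cyp2c53-ps at −1.40 and Cyp2c23), and 0 to 3 when each library was left out. The log2 differences that changed sign were those of 3 members whose groups overlap. Cyp2c52-ps (−0.05) was 0.24 with TMM, 0.043 with DESeq2 size factors and 0.034 with the replicate block, and −0.42 to 0.073 with libraries left out. Cyp2c72-ps (0.17) was −0.30 to 0.99 with libraries left out and −1.09 within run A (1.78 within run B), and Cyp2c55 (−0.31) was 0.12 within run A (−0.72 within run B). The cause was not tested.

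Same-numbered libraries did not pair (correlation of deviations −0.152 to 0.068 for Setd8-LKO + TCPOBOP with untreated, −0.434 to 0.114 for WT + TCPOBOP with untreated, −0.328 to 0.009 between treated groups). With the replicate block, 12, 10 and 0 members were called in the 3 comparisons, and all genes called fell from 459 to 159 in WT + TCPOBOP. With a reciprocal overlap of 50%, the kept Smc3 peaks of the cluster and the Cyp2c23 locus went from 1 to 0, and the other counts of peaks and promoters stayed within 1.5 times. Depth is known only for the listed genes, and the fold changes of Cyp2c65, Cyp2c66 and Cyp2c52-ps rest on 8 or fewer untreated counts.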
